A study of Homo sapiens with 8 samples.

Results

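LOXHD1 and 9 genes that flank it on chromosome 18 were followed across 8 RNA-seq libraries of SK-N-MC, an established Ewing sarcoma cell line. The members were the rows of the expression table that carry the symbols LOXHD1, EPG5, HAUS1, C18orf25, RNF165, ST8SIA5, PIAS2, KATNAL2, HDHD2 and IER3IP1, which makes 10 of the 60332 genes in the table. All 10 passed the filter on low values, which left 15372 genes to be tested. The comparison asked whether repression of a LOXHD1 enhancer was accompanied by changes in the genes around it. The libraries form 4 groups of 2. All of them expressed dCas9-KRAB, in which a Cas9 that no longer cuts is joined to the KRAB repressor domain. Control cells received the empty vector and grew either in normoxia or, for 16 h, under hypoxia at 1% oxygen. The eKD1 and eKD2 pools each expressed 1 guide that brought the repressor beside the GGAA microsatellite of LOXHD1, and the libraries of both came from hypoxia. The eKD groups were puromycin-selected pools of transduced cells and not clones. The study's text calls the control cells of this experiment parental and does not name their vector. No control carried a guide to another site, so the effect of carrying a guide and that of its target cannot be told apart in a single comparison. If the control cells were untransduced, the effect of the vector cannot be told apart either.

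LOXHD1 encodes a protein of the stereocilia of hair cells in the inner ear, and its loss causes hereditary hearing loss. Ewing sarcoma is driven by the fusion transcription factor EWSR1::FLI1, which binds runs of repeated GGAA and can turn them into active enhancers. KRAB recruits factors that lay down repressive chromatin, which may spread from the guided site, so the genes on either side of an enhancer are the usual place to look for effects beyond the intended target.

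The guided site is described first, since every comparison starts from it. The reference genome (GRCh37) holds 9 uninterrupted GGAA repeats there, on the plus strand. This run lies within LOXHD1, which is transcribed from the minus strand, and it overlaps no annotated exon. In the 40-exon transcript of GENCODE 44 it falls in the intron between exons 6 and 7, 49.1 kb downstream of the annotated start of the gene, 3.81 kb before exon 7 and 6.57 kb before exon 8. The study describes a shorter LOXHD1 transcript in Ewing cells that starts at exon 8, downstream of the repeat. It mapped this start in SK-N-MC itself by amplifying cDNA ends. Distances from the annotated start of LOXHD1 therefore do not refer to the start that the study mapped in this line. Which start was used in these libraries was not examined here. Only 1 other run of at least 9 repeats lies within 1 Mb. It has 15 repeats, sits inside ST8SIA5, the next gene on that side, and is centred 117.0 kb away.

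The motif searched was GGAA repeated head to tail, on both strands and without interruption. Runs of at least 9 repeats were found in 0.0192% of 196-base windows of chromosome 18, and runs of at least 4 repeats in 0.0869%. The 1 Mb on either side of the LOXHD1 repeat held 5 runs of at least 4 repeats. Of the remaining 3, a run of 5 lay in LOXHD1 itself, 7.4 kb further along the gene, a run of 5 in SLC14A2, and a run of 4 on the opposite strand in KATNAL2. The line that was sequenced may differ from the reference in the number of repeats.

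On the low-coordinate side lie EPG5 (ENSG00000152223, chr18:43380546-43547295, minus strand), HAUS1 (ENSG00000152240, chr18:43684344-43708299, plus strand), C18orf25 (ENSG00000152242, chr18:43753519-43846955, plus strand) and RNF165 (ENSG00000141622, chr18:43906772-44043103, plus strand). Their annotated start sites lie 640.7 kb, 503.7 kb, 434.5 kb and 281.2 kb from the repeat. LOXHD1 (ENSG00000167210) spans chr18:44056935-44237183. On the high-coordinate side lie ST8SIA5 (ENSG00000101638, chr18:44247784-44339220, minus strand), KATNAL2 (ENSG00000167216, chr18:44497455-44629849, plus strand), PIAS2 (ENSG00000078043, chr18:44383181-44500123, minus strand), HDHD2 (ENSG00000167220, chr18:44633779-44676871, minus strand) and IER3IP1 (ENSG00000134049, chr18:44679205-44702735, minus strand). Their start sites lie 151.2 kb, 309.4 kb, 312.1 kb, 488.9 kb and 514.7 kb away. The libraries did not mark strand, so reads from overlapping genes on opposite strands cannot be told apart. This concerns PIAS2 and KATNAL2, whose 5′ ends overlap and which share a locus in the table. HDHD2 and IER3IP1 both overlap a further annotated gene, ENSG00000267228, and share a locus with it. EPG5 overlaps SIGLEC15 in the newer annotation used here.

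Levels are given in FPKM, in which fragments are divided by transcript length and by the mapped reads of a library, so that genes may be compared with each other. Totals of FPKM ran from 865107 to 1041457 per library, and the relative depth read from the low values from 55.7% to 100% of the deepest library, replicate 1 of control hypoxia. Absolute depth is unknown. All 9 Ewing sarcoma markers were at 1 FPKM or more in every library. Among the neuroblastoma markers, DBH and TH, enzymes of catecholamine synthesis, were listed at 0 throughout, while the transcription factors HAND2 (median 14.6 FPKM, highest 18.2) and GATA3 (median 3.58 FPKM, highest 7.25) were above 1 FPKM in every library. For muscle, 3 of 3 muscle markers stayed below 1 FPKM. Of 3 epithelial markers KRT18 and EPCAM were above 1 FPKM in every library, and of 3 blood markers PTPRC was above it and CD3E was listed at 0. A difference was called where the adjusted p of limma was under 0.05. Log2 changes refer to FPKM with 1 added, which understates the change of genes near 0.

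LOXHD1 fell with both guides, and none of the other 9 genes was called with either. Its level was 93.0 and 91.1 in hypoxic control cells, 17.3 and 15.0 in eKD1 and 11.7 and 11.8 in eKD2. Normoxic control cells held 156 and 169 FPKM. The 4 groups were therefore ordered without overlap, from normoxic control through hypoxic control and eKD1 down to eKD2. The eKD1 mean of 16.2 ± 1.64 FPKM (SD, n = 2) was 17.6% of the hypoxic control mean of 92.1 ± 1.35 FPKM, and the eKD2 mean of 11.7 ± 0.0944 FPKM was 12.7% of it. The log2 change was -2.44 in eKD1 (SE 0.0958, 95% interval -2.71 to -2.17, limma adjusted p = 0.0371) and -2.87 in eKD2 (SE 0.0657, 95% interval -3.06 to -2.68, limma adjusted p = 0.00617). Both comparisons use the same control libraries. In pooled cells, a lower level in every cell and a larger share of cells without the transcript cannot be told apart. With any 1 of its 4 libraries left out, the change stayed between -2.54 and -2.34 in eKD1 and between -2.89 and -2.86 in eKD2, but an arm then held 1 sample, and the limma adjusted p rose to between 0.155 and 0.422 and to between 0.15 and 0.205. Without a variance trend the eKD1 call was lost as well (limma adjusted p = 0.109). An exact permutation test of 2 libraries against 2 cannot give a p below 0.333.

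**Figure D1:**
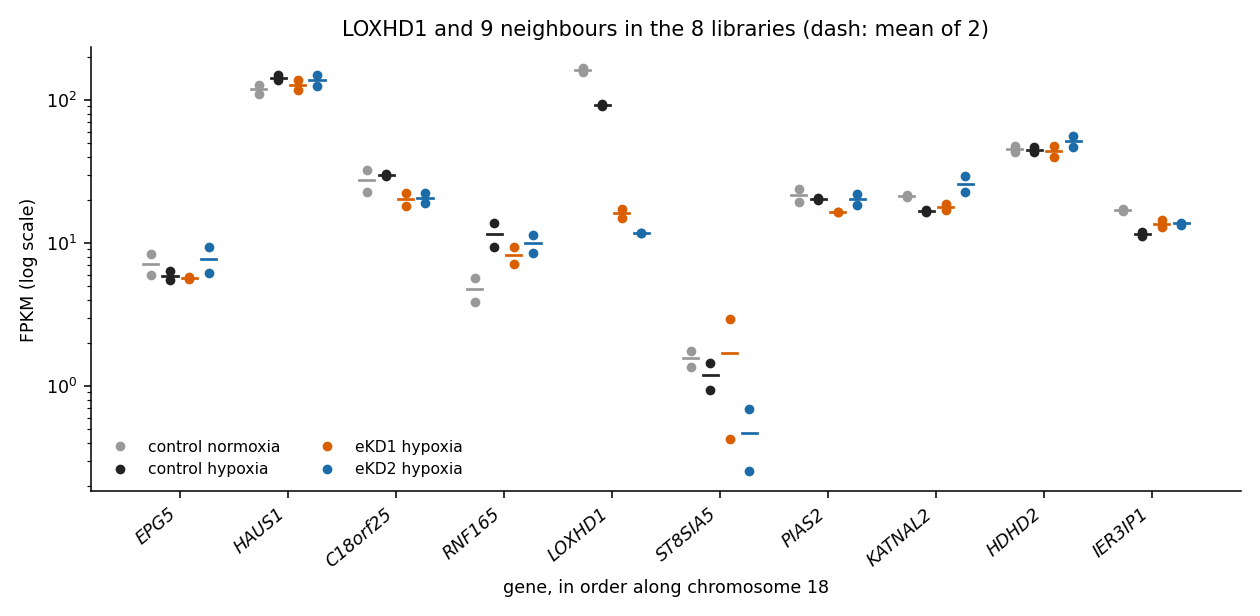
FPKM (log scale) of the 10 genes in order along chromosome 18, with 1 point per library, a dash at the mean of 2 libraries and a colour for each of the 4 groups. LOXHD1 moves from 92.1 FPKM in hypoxic control cells to 16.2 in eKD1 and 11.7 in eKD2, while the groups of most neighbours lie close to each other.

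The fall in LOXHD1 stood near the end of the whole distribution. Among genes of at least 300 bases that reached 5 FPKM in a group, it was the 4th largest of 10589 in eKD1 and the 5th largest of 10764 in eKD2. The 3 genes with a larger fall in eKD1 were AC072062.1, AC012462.3 and LINC02193, all non-coding RNAs of other chromosomes, and none was called by limma (adjusted p = 0.364, 0.489 and 0.46). Control duplicates disagreed for AC072062.1 (1.075 and 101.5 FPKM) and AC012462.3 (0 and 40.74 FPKM). For LINC02193 the eKD1 duplicates disagreed, at 25.96 and 0 FPKM against 42.77 and 21.98 in control. In eKD2, RPL39P5 and GP1BB fell further and were called (limma adjusted p = 0.00989 and 0.0273), while AC072062.1 and AC243547.3 fell further without being called. RPL39P5, a ribosomal protein pseudogene, was listed at 0 in both eKD2 libraries against 20.2 and 21.0 FPKM in control. GP1BB, a platelet receptor subunit, was at 0.00171 and 0.226 FPKM against 7.2 and 9.5.

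Of the 9 neighbours, 0 were called by limma in eKD1, where 0.0651% of all tested genes were called, and 0 in eKD2, where 9.61% were. A count of 0 of 9 lies close to so low a background in eKD1, and 9 genes are too few to tell 0 from the eKD2 background either. At an unadjusted p under 0.05 there were 2 of 9 in eKD1 (C18orf25 and PIAS2), beside 21.7% of all tested genes, and 2 of 9 in eKD2 (C18orf25 and KATNAL2), beside 32.8%, so neither share lay clearly above the background. The median log2 change of the 9 was -0.04 in eKD1 and -0.01 in eKD2, beside 0.00 and 0.05 over all tested genes. Single values ran from -0.55 to 0.22 in eKD1 and from -0.59 to 0.60 in eKD2. The libraries of the 2 groups did not overlap for 4 of 9 neighbours in eKD1, beside 53.6% of all tested genes, and for 5 of 9 in eKD2, beside 62.1%. A missed threshold does not show that a gene was unchanged, so the intervals matter. The 95% interval left out a fall of 1 log2 unit of FPKM + 1 for 7 of 9 neighbours in eKD1, all but RNF165 and ST8SIA5. In eKD2 it did so for 8 of 9, all but ST8SIA5. The same held for 84.7% and 85.9% of all tested genes, so these shares are close to the background as well. Because 1 is added, a fall of 1 log2 unit is more than a 2-fold fall in FPKM, most of all at low levels. The counts therefore do not show that a 2-fold fall in FPKM was left out. The eKD2 interval of RNF165, for instance, reached -0.90.

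**Figure D2:**
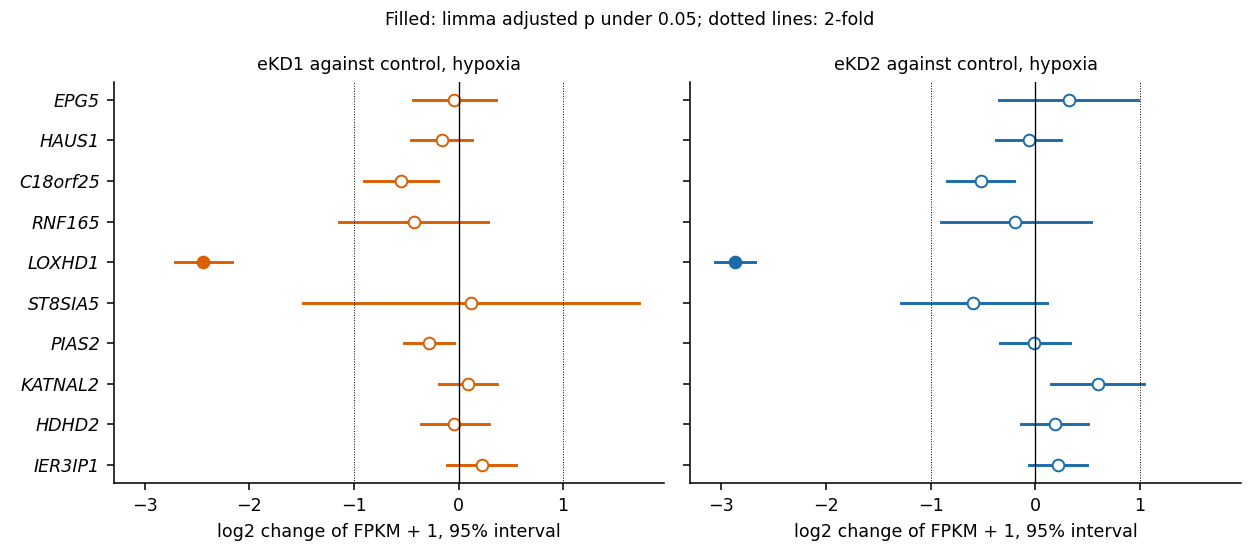
Log2 change of FPKM + 1 with its 95% interval for each gene, in chromosomal order, for eKD1 (left) and eKD2 (right) against control cells in hypoxia. Filled points were called by limma, open points were not, and dotted lines mark a 2-fold change of FPKM + 1. LOXHD1 alone is filled, at -2.44 and -2.87.

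The difference between LOXHD1 and each neighbour was also fitted directly. It passed limma's threshold for 9 of 9 neighbours in eKD1 and 9 of 9 in eKD2. The same fit called 98.4% of all tested genes in eKD1 and 98.5% in eKD2, so this count describes the size of the LOXHD1 change and says nothing particular about the neighbours, and all of these differences share the LOXHD1 values. The nearest neighbour in size was C18orf25, where LOXHD1 fell further by 1.89 log2 units in eKD1 (95% interval of the difference -2.21 to -1.57), and ST8SIA5 in eKD2 (difference -2.28, 95% interval -3.02 to -1.55). For ST8SIA5, which was near 1 FPKM or below, the added 1 understates its own fall and so widens this difference. With a pseudocount of 0.1 the eKD2 log2 changes were -2.96 for LOXHD1 and -1.27 for ST8SIA5. 

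Dividing LOXHD1 by its neighbours within a library removes any scaling between libraries. LOXHD1 stood at 8.05 and 7.77 times the median FPKM of the 9 neighbours in normoxic control cells and at 5.63 and 5.38 times in hypoxic control cells. The ratio was 1.05 and 0.908 in eKD1 and 0.631 and 0.534 in eKD2. Repressed cells thus held LOXHD1 at or below the level of a typical neighbour. Its share of the summed FPKM of the 10 genes was 25.1% and 23.7% in hypoxic control cells, 6.03% and 5.84% in eKD1 and 3.79% and 4.04% in eKD2. The summed FPKM of the 9 neighbours ran only from 241.9 to 296.1 over the 8 libraries. Among 12248 protein-coding genes LOXHD1 ranked 1580th and 1613th in hypoxic control, 6464th and 6889th in eKD1 and 7849th and 7833rd in eKD2.

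**Figure D3:**
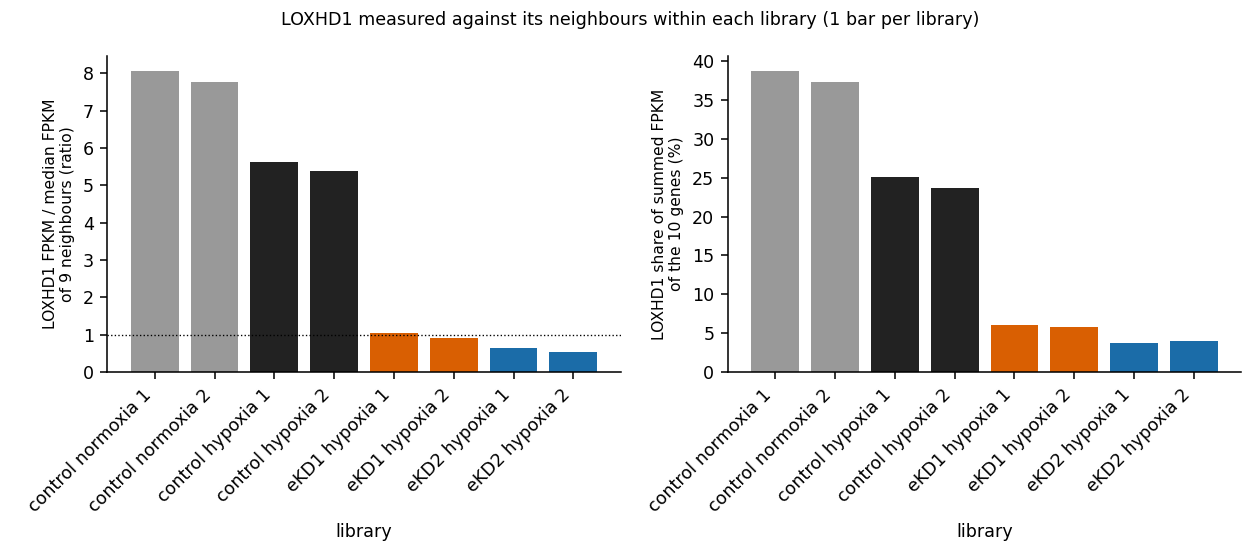
Left, the FPKM of LOXHD1 divided by the median FPKM of its 9 neighbours in each library, with a dotted line at 1. Right, the share of LOXHD1 in the summed FPKM of the 10 genes (%). Bars are single libraries coloured by group: the control libraries lie at 5.38 or above on the left, the eKD libraries at 1.05 or below.

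C18orf25 and RNF165 are related to different parts of the ubiquitin ligase Arkadia (RNF111), a regulator of TGF-beta family signalling, and both lie on the low-coordinate side of LOXHD1. C18orf25 was at 30.3 and 29.5 FPKM in hypoxic control, 22.2 and 18.2 in eKD1 and 18.9 and 22.4 in eKD2. All 4 eKD libraries were below both hypoxic controls, though replicate 1 of normoxic control, at 22.6 FPKM beside 32.2 FPKM in replicate 2, reached nearly as low. Its log2 change was -0.55 in eKD1 (95% interval -0.90 to -0.20, limma adjusted p = 0.147) and -0.52 in eKD2 (95% interval -0.84 to -0.20, limma adjusted p = 0.0713). It was thus not called with either guide, and when only protein-coding genes were fitted the eKD2 limma adjusted p was 0.0405. The means were 67.5% and 69.0% of the hypoxic control mean. RNF165, the gene whose end lies nearest to LOXHD1 on that side, was at 9.38 and 13.7 FPKM in hypoxic control, 7.08 and 9.44 in eKD1 and 8.50 and 11.4 in eKD2. Its duplicates differed as much as the groups did, and the groups overlapped. On the log2 scale the difference was -0.43 in eKD1 (95% interval -1.14 to 0.28) and -0.19 in eKD2 (95% interval -0.90 to 0.53). Leaving out 1 library moved the eKD1 value to between -0.68 (without replicate 1 of hypoxic control) and -0.18 (without replicate 2).

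PIAS2 is a SUMO ligase that modifies transcription factors, and KATNAL2 is a relative of the microtubule-severing enzyme katanin. Their annotated 5′ ends overlap, so a part of the reads of one may have been assigned to the other. PIAS2 was at 20.0 and 20.5 FPKM in hypoxic control, 16.5 and 16.5 in eKD1 and 18.5 and 22.1 in eKD2. The eKD1 libraries lay below both controls and the eKD2 libraries on either side of them. The PIAS2 log2 change was -0.28 in eKD1 (95% interval -0.52 to -0.04, limma adjusted p = 0.196) and -0.01 in eKD2 (95% interval -0.34 to 0.33). KATNAL2 was at 16.5 and 16.9 FPKM in hypoxic control, 17.1 and 18.7 in eKD1 and 29.5 and 22.5 in eKD2. Both eKD2 libraries stood above all 6 others, the duplicates were far apart, and its log2 change was the highest of the 9 neighbours in eKD2. The KATNAL2 log2 change was 0.60 in eKD2 (95% interval 0.15 to 1.04, limma adjusted p = 0.0953) and 0.09 in eKD1 (95% interval -0.19 to 0.37). When all 8 libraries shared an estimate of the spread, the eKD2 limma adjusted p for KATNAL2 was 0.0321.

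ST8SIA5 is a sialyltransferase that acts on gangliosides. It is the neighbour on the other side of LOXHD1, it carries the longer GGAA run, and its start site is the closest of the 9 to the guided repeat. It was also the lowest expressed, reaching 1 FPKM in 4 of 8 libraries. Its level was 0.942 and 1.46 FPKM in hypoxic control, 2.95 and 0.422 in eKD1, 0.689 and 0.253 in eKD2 and 1.76 and 1.36 in normoxic control. The eKD1 duplicates held the highest value of all 8 libraries and the second lowest, and both eKD2 libraries were below both hypoxic controls. The fitted log2 change was 0.12 in eKD1 (95% interval -1.49 to 1.73) and -0.62 without replicate 1 of eKD1. In eKD2 it was -0.59 (95% interval -1.28 to 0.11, limma adjusted p = 0.198) and -1.27 with a pseudocount of 0.1 (limma adjusted p = 0.215), and the eKD2 mean of 0.471 FPKM was 39.3% of the hypoxic control mean of 1.2 FPKM. At this level a 2-fold change of ST8SIA5 in either direction was not detectable in eKD1. The eKD2 interval held a 2-fold fall as well, so such a fall was not excluded with either guide.

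HAUS1, a subunit of the augmin complex that branches spindle microtubules, was the most abundant neighbour. It was at 137 and 149 FPKM in hypoxic control, 138 and 118 in eKD1 and 150 and 126 in eKD2. The groups overlapped with both guides. Fitted log2 changes were -0.16 in eKD1 (95% interval -0.45 to 0.13) and -0.06 in eKD2 (95% interval -0.37 to 0.25), so a fall of the size seen in LOXHD1 lay well outside both intervals. HAUS1 starts back to back with ATP5A1, a subunit of mitochondrial ATP synthase, which was at 402.8 and 359.6 FPKM in hypoxic control and between 339.9 and 376.1 FPKM in the 4 eKD libraries.

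EPG5, which tethers autophagosomes to lysosomes, and IER3IP1, a small membrane protein of the endoplasmic reticulum, lie at the ends of the interval. EPG5 was at 5.49 and 6.36 FPKM in hypoxic control, 5.62 and 5.81 in eKD1 and 9.33 and 6.15 in eKD2. A single eKD2 library stood above the rest, and the groups overlapped. The log2 change was -0.04 in eKD1 (95% interval -0.44 to 0.36) and 0.32 in eKD2 (95% interval -0.35 to 0.98). IER3IP1 was at 11.2 and 11.9 FPKM in hypoxic control, 12.9 and 14.4 in eKD1 and 13.9 and 13.5 in eKD2. All 4 eKD libraries were above both hypoxic controls and below both normoxic controls, which held 17.2 and 16.8 FPKM. The log2 change was 0.22 with each guide, with 95% intervals of -0.11 to 0.55 in eKD1 and -0.06 to 0.50 in eKD2, and limma adjusted p = 0.368 and 0.217. HDHD2, a hydrolase-like protein next to IER3IP1, was at 46.8 and 43.3 FPKM in hypoxic control, 47.8 and 40.1 in eKD1 and 47.1 and 56.0 in eKD2. Its groups overlapped in eKD1, and in eKD2 both libraries were above the controls by a small margin (log2 change 0.19, 95% interval -0.14 to 0.51).

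The table lists 42 genes within 1 Mb of the repeat, of which 19 were at 0 in all libraries and 14 were tested, LOXHD1 included. Of the other 13, limma called 0 in eKD1, with 2 (15.4%) at an unadjusted p under 0.05 beside 21.7% of all tested genes, and 1 (7.69%) in eKD2 beside 9.61%. That one was RN7SKP26, a pseudogene of the small nuclear RNA 7SK, listed at 0 in both hypoxic controls and both eKD1 libraries and at 1.159 and 1.166 FPKM in both eKD2 libraries. Replicate 1 of normoxic control held 1.183 FPKM and replicate 2 was listed at 0. The call thus rests on a difference between 0 and values just above the filter of 1 FPKM. The libraries with these near-equal values had relative depths of 76.0% (normoxic control) and 77.6% and 77.1% (eKD2). Whether each value stands for the same very small number of reads was not tested, since counts were not analysed. Within 2 Mb, eKD2 added SMAD2, a signal transducer of TGF-beta, at 53.1 and 59.3 FPKM in hypoxic control and 85.3 and 85.7 in eKD2 (log2 change 0.60, limma adjusted p = 0.0359). No gene within 2 Mb other than LOXHD1 was called lower with either guide. Over the 236 tested genes of chromosome 18 other than LOXHD1, 0 were called in eKD1, with 46 (19.5%) at an unadjusted p under 0.05, and 26 (11.0%) in eKD2, of which 22 were higher and 4 lower. Both shares lay near those of all tested genes, 21.7% and 9.61%. The direction in eKD2 did not: over all tested genes 891 were called higher and 586 lower. The median log2 change in eKD2 was 0.18 on chromosome 18, LOXHD1 aside, beside 0.05 over all tested genes. Between the guides it was 0.17 beside 0.05. The cause of this upward lean was not tested.

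**Figure D4:**
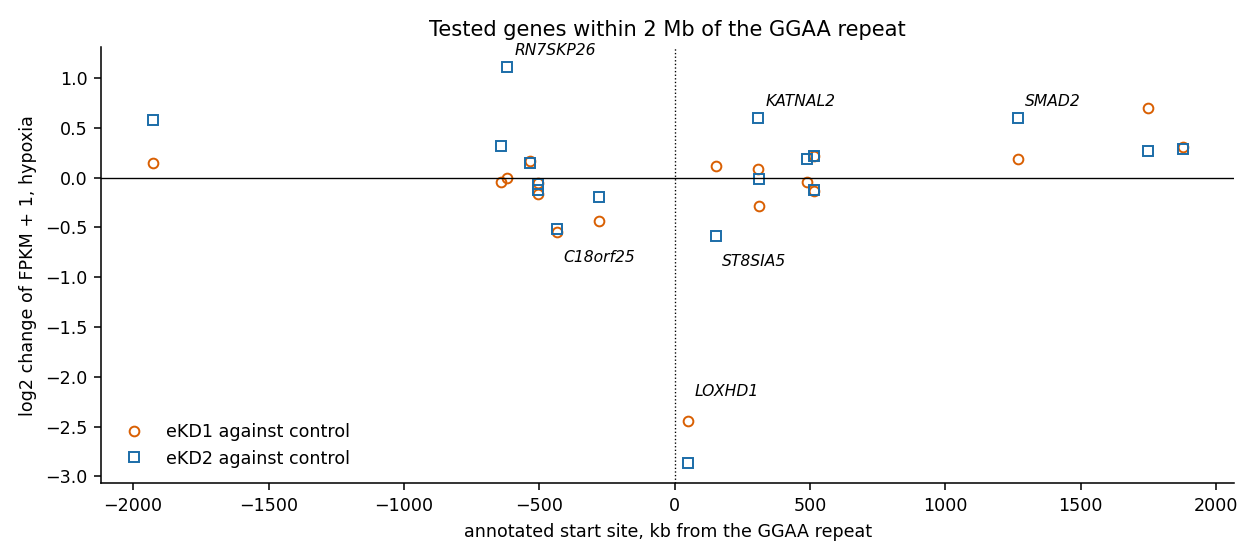
Log2 change of FPKM + 1 against the distance (kb) of the annotated start site from the GGAA repeat, for every tested gene within 2 Mb, with circles for eKD1 and squares for eKD2 against control in hypoxia. LOXHD1 lies at -2.44 and -2.87, and every other gene between -0.59 and 1.11.

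Hypoxia itself moved LOXHD1 in control cells. Its level went from 162 ± 9.04 FPKM in normoxia to 92.1 ± 1.35 FPKM (SD, n = 2 each), which is 56.8% (log2 change -0.81, 95% interval -0.99 to -0.63, limma adjusted p = 0.0082). This was a modest change in that comparison, the 899th largest fall of 10767 genes. Of the 9 neighbours limma called 2, where it called 32.2% of all tested genes. RNF165 rose from 3.89 and 5.67 FPKM to 9.38 and 13.7 (log2 change 1.11, 95% interval 0.35 to 1.87, limma adjusted p = 0.0491). IER3IP1 fell from 17.2 and 16.8 FPKM to 11.2 and 11.9 (log2 change -0.52, 95% interval -0.79 to -0.24, limma adjusted p = 0.0303). Neither pair of groups overlapped, and the call of RNF165 was lost with a pseudocount of 0.1 (limma adjusted p = 0.0539). ENSG00000267228, which overlaps IER3IP1 on the same strand, was at 62.1 and 68.1 FPKM in normoxia and 68.3 and 72.7 in hypoxia. Whether reads were divided differently between IER3IP1 and this larger entry was not tested. KATNAL2 went from 21.0 and 21.7 FPKM to 16.5 and 16.9 FPKM without being called (log2 change -0.33, limma adjusted p = 0.0562). The other 6 neighbours lay between -0.23 and 0.27. Groups did not overlap for 4 of 9 neighbours, beside 70.4% of all tested genes. With any 1 library left out, 0 of 9 neighbours were called and the limma adjusted p of LOXHD1 was between 0.0626 and 0.105, at log2 changes of -0.87 to -0.75. No eKD library came from normoxia, so whether repression acts differently with and without hypoxia was not tested.

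Set directly against each other, the guides differed little over these genes. LOXHD1 was lower in eKD2 than in eKD1 in both libraries, by a log2 change of -0.43 (95% interval -0.77 to -0.08), which limma did not call (adjusted p = 0.162). None of the 9 neighbours was called, beside 0.403% of all tested genes, and 1, KATNAL2, had an unadjusted p under 0.05 (log2 change 0.50, 95% interval 0.03 to 0.98, limma adjusted p = 0.198), beside 23.6% of all tested genes. The groups did not overlap for 3 of 9, EPG5, PIAS2 and KATNAL2, all higher in eKD2, beside 55.2% of all tested genes. For ST8SIA5 the interval ran from -2.38 to 0.97, so a 2-fold difference between the guides was within it.

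**Figure D5:**
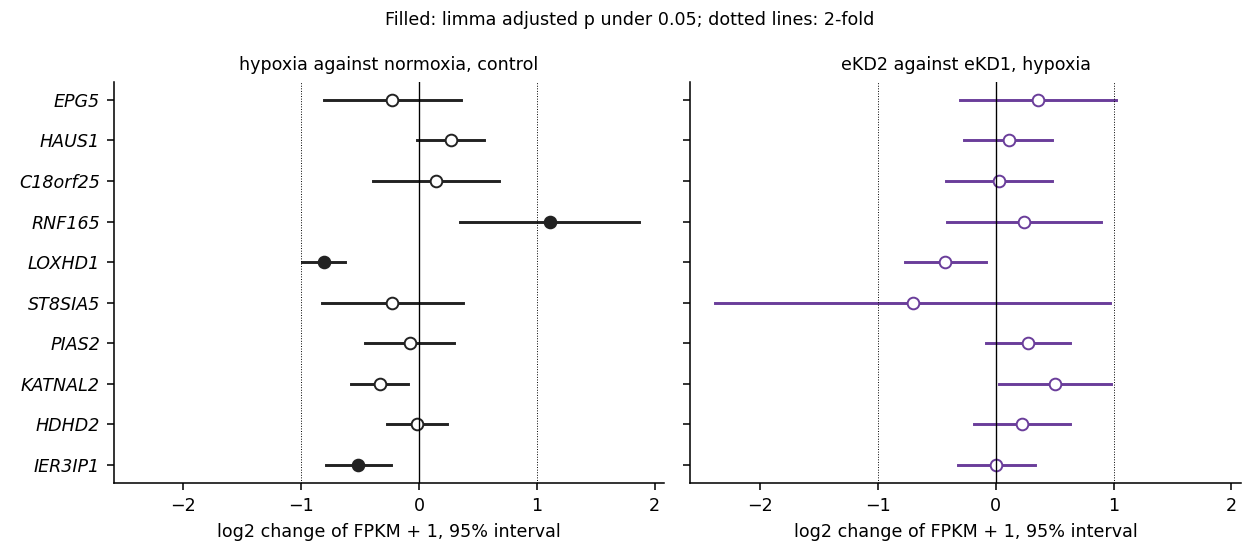
Log2 change of FPKM + 1 with its 95% interval, with the genes in chromosomal order. Left, hypoxia against normoxia in control cells. Right, eKD2 against eKD1 in hypoxia. Filled points were called by limma, and dotted lines mark a 2-fold change of FPKM + 1. LOXHD1 (-0.81), RNF165 (1.11) and IER3IP1 (-0.52) are filled on the left, and no gene on the right.

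The 5 genes closest to LOXHD1 in pattern over the 8 libraries lay on other chromosomes, as nearly all tested genes do. Chromosome 18 held 236 of the 15372 tested genes, LOXHD1 aside, so this says nothing particular about the neighbours. Among 10370 genes of at least 300 bases and a mean of at least 5 FPKM, the 5 highest Pearson correlations on the log2 scale were those of HMGN5 (r = 0.988), a nucleosome-binding protein, PNN (0.978), a splicing-associated nuclear protein, GAP43 (0.97), a growth-cone protein, TPBG (0.97), a cell-surface glycoprotein, and SNRPC (0.967), a U1 snRNP subunit. Over the libraries LOXHD1 spanned 3.74 log2 units and these genes 0.21 to 1.35. HMGN5, for instance, was at 158 FPKM in both normoxic controls, 137 and 141 FPKM in hypoxic control, 87.6 and 81.4 in eKD1 and 89.3 and 77.8 in eKD2. The 8 points share their libraries and fall in 4 groups, so the correlations are descriptive. Of the neighbours, C18orf25 came closest (r = 0.782, rank 278), followed by PIAS2 (0.521) and IER3IP1 (0.268), and the rest had values between -0.43 and -0.048. ST8SIA5 was below the mean limit.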

How the data were processed

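Poly-A RNA of 8 SK-N-MC libraries was sequenced without strand marking. The authors aligned single-end reads to GRCh37 with STAR and deposited FPKM from cufflinks and cuffnorm for 60332 genes, all in 1 table. How cuffnorm scaled the libraries is not given in the sources used here, and cufflinks divides reads among overlapping genes. The study tested read counts. Counts were not analysed here, so limma 3.58.1 (R 4.3.3) was fitted to log2(FPKM + 1) with a variance trend, for genes of at least 1 FPKM in at least 2 libraries. Each pair of groups was fitted alone, and Benjamini-Hochberg adjustment covered all 15372 tested genes. A second fit took LOXHD1 minus each other gene on the log2 scale. Groups and replicate numbers came from the sample titles. The study's methods call the duplicates biological, but separate cultures are not described further, so p-values measure the spread between these libraries. No interval for a single FPKM or detection limit was computed, since both need counts. Positions came from GENCODE 44 on GRCh37 and repeats were counted in the GRCh37 reference. The repeat sequences and 1 marker gene are not reported here. The script was tested on simulated data.

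Genes named beside the 10 members were those called with a guide within 1 Mb, those with a larger fall than LOXHD1 where 5 or fewer, and the 5 most correlated. SMAD2, ATP5A1 and the markers were named after their values were seen or as checks. The members and lists were chosen with earlier results of these data known. Alternatives were other pseudocounts, filters, scalings, variance models, gene sets, windows, a replicate block and leaving out each library.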

Additional observations from a re-analysis of the deposited data

How the results depend on the processing

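Alternatives kept the fall of LOXHD1 with both guides. Its log2 change ran from -2.51 to -2.37 in eKD1 and from -2.96 to -2.77 in eKD2 with all libraries kept. The limma call was lost without a variance trend in eKD1 (-2.44), and when both guides were fitted with the replicate block (-2.44 and -2.87, limma adjusted p = 0.249 and 0.0925). Same-numbered libraries showed little shared deviation: the correlations of their deviations between groups ran from -0.0574 to 0.126. With only 2 pairs this cannot show that they were handled separately. The block also took IER3IP1 from the hypoxia calls. With 1 library left out, an arm holds 1 sample, assumed to vary like the other group, and LOXHD1 lost its call at values of -2.54 to -2.34 (eKD1), -2.89 to -2.86 (eKD2) and -0.87 to -0.75 (hypoxia). A fit shared by all 8 libraries called LOXHD1 lower in eKD2 than in eKD1 (-0.43, limma adjusted p = 0.0384).

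The number of neighbours called in eKD1 stayed 0 throughout. In eKD2 it was 1 with the shared fit (KATNAL2) and 1 with protein-coding genes only (C18orf25). For hypoxia it was 1 with a pseudocount of 0.1, with the replicate block and without a variance trend, and 0 to 0 with a library left out. With equal FPKM totals or no filter it stayed 2, with KATNAL2 called and RNF165 not. The genes called in eKD2 were 0 within 500 kb and 2 within 2 Mb. With a mean of at least 5 FPKM, ST8SIA5 was not tested.

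Uncalled changes near 0 reversed. Equal FPKM totals put the median log2 change of all tested genes at 0.064 (eKD1), 0.143 (eKD2) and -0.191 (hypoxia). In the main fit these medians were 0.002, 0.052 and 0.013. That scaling gave 0.02 for EPG5 and 0.03 for HDHD2 in eKD1, 0.05 for HAUS1 and 0.10 for PIAS2 in eKD2, and -0.09 for C18orf25 in hypoxia. A pseudocount of 0.1 gave -0.01 for ST8SIA5 in eKD1. Median-of-ratios rescaling gave -0.02 for C18orf25 and -0.04 for IER3IP1 in eKD2 against eKD1. Leaving out 1 library gave, in eKD1, -0.13 to 0.05 for EPG5, -0.62 to 0.86 for ST8SIA5 and -0.16 to 0.09 for HDHD2. In eKD2 it gave -0.18 to 0.07 for HAUS1, -0.44 to 0.06 for RNF165 and -0.13 to 0.12 for PIAS2. In hypoxia it gave -0.10 to 0.39 for C18orf25, -0.23 to 0.07 for PIAS2 and -0.09 to 0.05 for HDHD2. Between the guides it gave -0.02 to 0.23 for HAUS1, -0.10 to 0.17 for C18orf25, -1.44 to 0.03 for ST8SIA5 and -0.07 to 0.08 for IER3IP1. Apart from the library left out, the cause was not tested. Absolute depth is unknown, so no limit set by depth was computed for any gene.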
